A study of Mus musculus with 4 samples.

Results

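The 6 miRNAs described here are known for their part in lung tumours and inflammation. They are mmu-miR-21, mmu-miR-31, mmu-miR-146a, mmu-miR-146b, mmu-miR-155 and mmu-miR-210, and they were followed in mouse bronchoalveolar stem cells (BASCs) with and without depletion of c-Myc. They were chosen by name, as 6 of the 517 mouse miRNAs assayed. Each was read in 1 well of the first of 2 TaqMan low-density cards (card A). 2 control samples and 2 c-Myc depleted samples were measured. BASCs are rare cells of the bronchoalveolar duct junction. Here they came from lungs of ICR mice aged 4 to 6 weeks and were sorted as CD31neg, CD45neg, CD34pos and Sca-1pos, then grown on irradiated mouse embryonic fibroblast (MEF) feeder cells, as the labels say of both groups. The study's text describes later culture on collagen-coated dishes in one place and on feeder cells in another, so whether feeder cells were present when RNA was taken is not settled. The depleted samples carried a c-Myc shRNA delivered by lentivirus and had been selected with puromycin into stable lines. The labels call the other samples control and do not say whether these carried a control vector or met puromycin. The study's text calls the compared cells both control and wild type in its miRNA results, which does not settle this. It describes a negative control vector with the puromycin marker, but does not say that the controls of the cards carried it. Depletion therefore cannot be told apart from lentivirus and selection. The labels do not say that the replicates came from separate cultures, so p-values measure only the spread between these samples. The cards hold no assay for c-Myc mRNA, and the depletion itself could not be checked in these values. The study measured c-Myc mRNA by real-time PCR and its protein by western blot in its stable lines.

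A miRNA is cut from a hairpin transcript in 2 steps, by Drosha and Dicer, and one arm is loaded into an Argonaute protein, where bases 2 to 8 (the seed) choose the mRNAs to be repressed. miR-21 and miR-31 are raised in many lung tumours, miR-21 being known to repress Pdcd4, and miR-31 to repress Lats2 and Ppp2r2a. miR-146a and miR-146b are induced by NF-kB and repress Irak1 and Traf6 in a negative feedback on inflammatory signalling. miR-155 is abundant in activated lymphocytes and macrophages and represses Socs1. miR-210 is induced in hypoxia and represses Iscu, an assembly factor of mitochondrial iron-sulphur clusters. c-Myc is a transcription factor that raises some miRNAs and lowers many others.

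The mature sequences from RefSeq (GRCm38.p6) are shown because they set which of the 6 can be told apart, with the seed in capitals, 5′ to 3′. The file names assays and holds no probe sequence, so the arm of each hairpin was assigned from the older miRNA names.
mmu-miR-21a-5p: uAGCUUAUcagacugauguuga
mmu-miR-31-5p: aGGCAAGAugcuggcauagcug
mmu-miR-155-5p: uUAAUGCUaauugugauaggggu
mmu-miR-210-3p: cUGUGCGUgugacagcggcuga
mmu-miR-146a-5p: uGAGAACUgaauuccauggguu
mmu-miR-146b-5p: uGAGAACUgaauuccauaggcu

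The 6 miRNAs held 5 different seeds, and miR-146a and miR-146b shared one. These 2 were the same at 20 of 22 positions and differed by G18A and U21C, with the base of miR-146a first and positions counted from the 5′ end. Whether the miR-146a assay also reads miR-146b was not tested. Among 1679 mature mouse miRNAs in the table, miR-21c had the seed of miR-21, and no other miRNA had that of miR-31, miR-155 or miR-210. miR-21 lay at chr11:86584120-86584141 on the minus strand, and its hairpin overlapped the protein-coding gene Vmp1. miR-155 lay at chr16:84714143-84714165 on the plus strand, and its hairpin overlapped the long non-coding gene Mir155hg. miR-31 lay at chr4:88910614-88910635 on the minus strand and miR-146b at chr19:46342790-46342811 on the plus strand. Their hairpins overlapped the long non-coding genes Gm49890 and Gm36493, and the strand of Gm36493 was not available. miR-146a at chr11:43374435-43374456 and miR-210 at chr7:141221407-141221428, both on the minus strand, overlapped no other gene of the annotation. The 6 miRNAs came from 6 separate hairpins on 5 chromosomes.

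The values were threshold cycles (CT), the PCR cycle at which the signal passes a threshold. A CT lower by 1 cycle stands for 2-fold more RNA where amplification is complete. The mean of the 4 U6 wells of the same card was subtracted (ΔCT), and a log2 change is the ΔCT of the control samples minus that of the depleted samples, so that a positive value is a higher level after depletion. A CT was recorded in 334 to 351 of 768 wells per sample, and 222 to 229 mouse miRNAs had a CT below 35. In bulk samples, fewer cells that express a miRNA and less of it per cell cannot be told apart.

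All 6 miRNAs were detected in all 4 samples, and their levels fell into a fixed order that was the same in control and depleted cells except for miR-21 and miR-155. miR-31 was the most abundant, with a CT of 24.97 and 24.98 in controls and 24.96 and 24.84 after depletion, which placed it between 8th and 13th among the mouse assays. The number of copies per cell, estimated with the formula of the study's methods from the CT alone, was 1436 ± 7.50 (SD, n = 2) for miR-31 in controls and 1507 ± 89.3 (SD, n = 2) after depletion. The 4 samples were close together and the groups overlapped in ΔCT, at 6.07 and 5.87 in controls against 6.10 and 6.00.

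miR-21 and miR-155 came next, at nearly the same level. The CT of miR-21 was 25.97 and 25.73 in controls and 25.91 and 25.99 after depletion. That of miR-155 was 25.96 and 25.94 in controls and 25.91 and 25.95 after depletion. Their ΔCT differed by -0.04 to 0.22 cycles in the 4 samples, and these neighbours in the order could not be separated. miR-21 had 788 ± 93.0 and 733 ± 29.2 estimated copies per cell (SD, n = 2 each) in controls and depleted samples, and miR-155 had 731 ± 7.89 and 743 ± 14.8 (SD, n = 2 each). miR-31 lay above miR-21 by 0.75 to 1.15 cycles and above miR-155 by 0.94 to 1.11 cycles, in all 4 samples. Such a difference between assays is one of level only if both amplify equally well.

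miR-210 and miR-146b were lower and more spread. The CT of miR-210 was 27.50 and 26.99 in controls and 26.75 and 27.01 after depletion, 0.85 to 1.53 cycles later than miR-21. That of miR-146b was 28.49 and 28.96 in controls and 27.95 and 28.56 after depletion, 0.99 to 1.97 cycles later than miR-210. For each, 1 depleted sample had the lowest CT and 1 control the highest, with the other samples between them. Estimated copies per cell were 304 ± 74.3 and 387 ± 47.4 (SD, n = 2 each) for miR-210, and 109 ± 24.8 and 153 ± 44.7 (SD, n = 2 each) for miR-146b.

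miR-146a, the other miRNA with that seed, was the least abundant and least steady of the 6. Its CT was 31.12 and 33.98 in the controls and 32.55 and 32.94 after depletion. The 2 controls thus lay on either side of both depleted samples. Its ΔCT exceeded that of miR-146b by 2.63 and 5.02 cycles in controls and by 4.60 and 4.38 after depletion, a difference of 6.20- to 32.5-fold in favour of miR-146b. Estimated copies per cell were 11.8 ± 12.6 and 6.82 ± 1.31 (SD, n = 2 each).

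**Figure D1:**
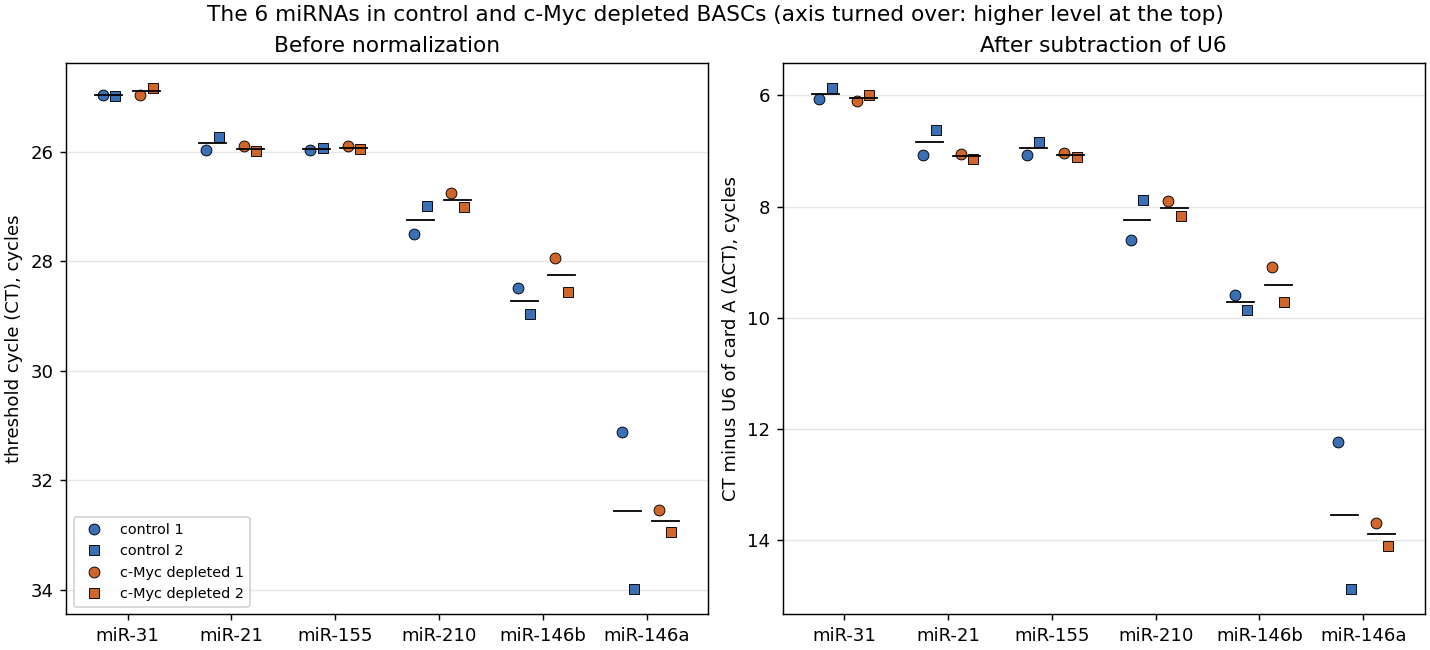
CT (left) and ΔCT after subtraction of the mean U6 of card A (right), in cycles, of the 6 miRNAs in each sample, with blue for control, orange for c-Myc depleted, circles for replicate 1, squares for replicate 2 and a bar at each group mean; the axes are turned over so that higher levels are at the top. The 4 CT values span 0.135 cycles for miR-31, 0.263 for miR-21 and 0.0562 for miR-155, and the 2 controls of miR-146a are 2.86 cycles apart.

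To ask whether c-Myc depletion changed the 6 miRNAs, the 80 mouse miRNAs with a ΔCT below 10 in at least 1 sample were tested together (limma, Benjamini-Hochberg adjusted over the 80). 5 of the 6 passed this filter and miR-146a did not. None of the 5 had an adjusted p below 0.05, an unadjusted p below 0.05 or an unadjusted p below 0.05 in the per-miRNA analysis of variance of the methods. Over all 80 miRNAs, 32.5% had an adjusted p below 0.05 (25.0% higher and 7.50% lower after depletion), and the share was 32.8% of the 64 on card A. By the criteria of the methods (ΔCT below 10, more than 2-fold and an unadjusted p below 0.05) 20.0% of the 80 were called, and none of the 5. The ΔCT ranges of control and depleted samples overlapped for all 6 miRNAs, where the groups did not overlap for 67.5% of the 80. With 2 samples a group, an exact permutation test of a single miRNA cannot go below p = 0.333.

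The 3 most abundant of the 6 had the smallest standard errors. The log2 change was -0.08 for miR-31 (SE 0.14, 95% interval -0.49 to 0.33, limma adjusted p = 0.652). It was -0.25 for miR-21 (SE 0.21, 95% interval -0.85 to 0.35, limma adjusted p = 0.433). It was -0.13 for miR-155 (SE 0.14, 95% interval -0.55 to 0.29, limma adjusted p = 0.554). Relative to U6 of the same card, each of these limma intervals left out a 2-fold change in either direction. With the same U6, the interval of miR-21 was -1.25 to 0.75 in the per-miRNA analysis of variance. It was -1.08 to 0.58 with replicate number as a block. Those of miR-31 and miR-155 stayed within 2-fold in both fits. Under other references, too, a 2-fold fall was not always left out. The interval reached past a 2-fold fall for all 3 with median centring (log2 -0.64, 95% interval -1.06 to -0.22, for miR-21, -0.47, -1.02 to 0.08, for miR-31 and -0.52, -1.01 to -0.02, for miR-155) and with centring within card (-0.76, -0.59 and -0.63). It also did so for miR-21 and miR-155 with quantile normalization (-0.77 and -0.40) and for miR-21 with U6 of both cards pooled (-0.54). The limma p before adjustment was 0.0127 for miR-21 and 0.0453 for miR-155 with median centring, where the adjusted p was 0.0940 and 0.108. When snoRNA135 and snoRNA202 were taken as the reference, the log2 change of miR-21 was -0.55 with a limma adjusted p of 0.0480. This was the only call made for any of the 5 tested miRNAs under the 18 alternatives run. These 2 RNAs did not move together. Before normalization on card A, with 1 well each, the log2 difference was 1.07 for snoRNA135 and -0.17 for snoRNA202. On card B snoRNA202 was the higher one after depletion, and snoRNA135 hardly moved. The call for miR-21 thus rests on a reference that itself shifted.

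The intervals of the 2 less abundant miRNAs were wider. The log2 change was 0.32 for miR-146b (SE 0.28, 95% interval -0.49 to 1.13, limma adjusted p = 0.453) and its depleted samples lay at ΔCT 9.09 and 9.72 against 9.60 and 9.85. It was 0.22 for miR-210 (SE 0.31, 95% interval -0.68 to 1.11, limma adjusted p = 0.612), with 7.89 and 8.17 against 8.60 and 7.89. Both limma intervals reached just past a 2-fold rise and left out a 2-fold fall. In the per-miRNA analysis of variance they reached past both, at -1.15 to 1.79 for miR-146b and -1.44 to 1.87 for miR-210. miR-146a, which was not tested, had a log2 difference of -0.34 that its controls decided, at 0.98 without control 1 and -1.67 without control 2.

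The directions depended on the reference. Before any reference was subtracted, the log2 differences were 0.07 for miR-31, -0.10 for miR-21, 0.02 for miR-155, 0.37 for miR-210, 0.47 for miR-146b and -0.19 for miR-146a. The U6 signal of card A was itself higher after depletion by 0.15. With each sample centred on its median, miR-210 moved to -0.17 and miR-146b to -0.07, and the median of all 80 tested miRNAs moved from 0.05 to -0.27. miR-21, miR-31 and miR-155 were below 0 under each of the 6 references, and none of these values reached 1 log2 unit.

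**Figure D2:**
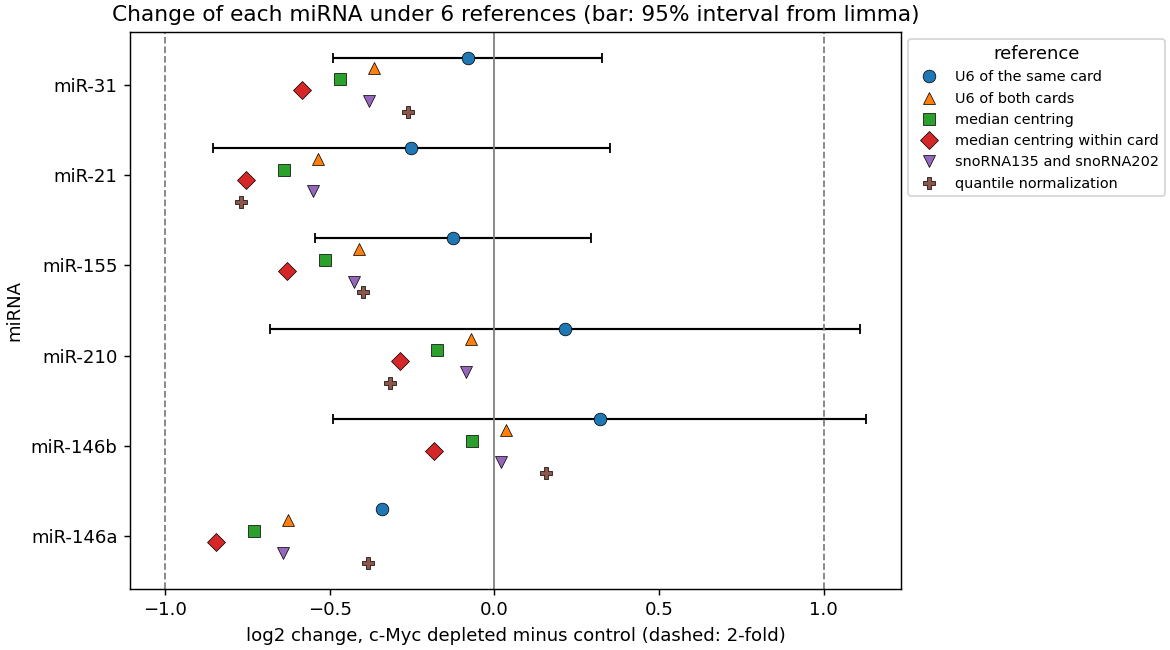
Log2 change (depleted minus control, horizontal axis) of each miRNA under 6 references, with the 95% interval of the limma fit as a bar on the value relative to U6 of the same card and dashed lines at 2-fold; miR-146a has no bar because it was not tested. The points of miR-210 and miR-146b fall on both sides of 0, and those of miR-21, miR-31 and miR-155 lie between 0 and -1.

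Among the 64 tested miRNAs of card A, counted from the highest change, miR-146b stood at place 31, miR-210 at 33, miR-31 at 39, miR-155 at 43 and miR-21 at 56. Their median was -0.08, with 2 of 5 above 0, beside a median of 0.23 over the 64, of which 37 were above 0. Over the 80, the median was 0.05.

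**Figure D3:**
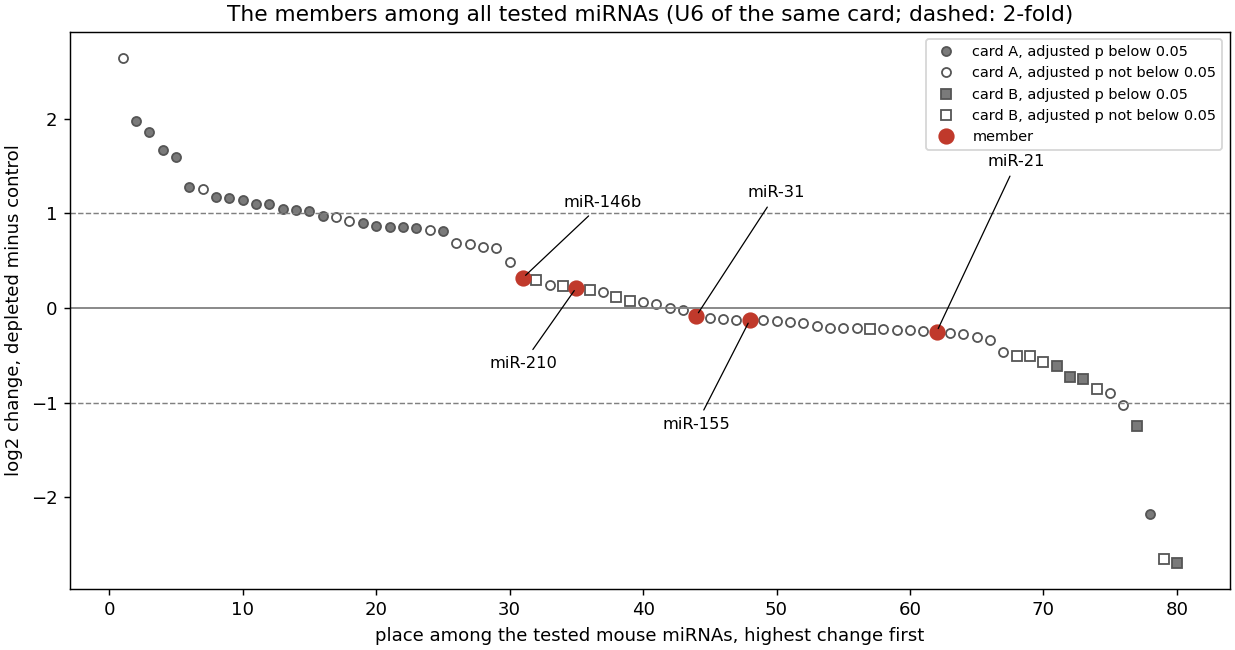
Log2 changes (vertical axis) of the 80 tested mouse miRNAs in order from highest to lowest (horizontal axis), with circles for card A, squares for card B, filled where the adjusted p was below 0.05, and the members in red. The 5 members lie between 0.32 and -0.25, inside the dashed 2-fold lines.

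The CT values of miR-155, miR-31 and miR-21 before U6 were among the steadiest of the table. The 4 CT values of miR-155 spanned 0.0562 cycles, the third smallest range of the 189 mouse miRNAs with a CT below 35 in all samples. The range was 0.135 for miR-31 (place 12) and 0.263 for miR-21 (place 19). It was 0.746 for miR-210 (place 61), 1.01 for miR-146b (place 84) and 2.86 for miR-146a (place 186). After U6, the range of ΔCT placed miR-31 at 6, miR-155 at 13 and miR-21 at 42 of the 189, with 0.232, 0.274 and 0.531 cycles.

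These narrow ranges stood beside an uneven spread of the CT values themselves. Of the 1366 CT values of the table, 44.2% lay within 0.1 cycle below a whole number, that is from 0.9 after the decimal point on, where an even spread would put 10%. Card A had 52.5% of its values there, against 35.3% for card B, and single samples ranged from 31.7% to 54.5%. Of the 24 CT values of the 6 miRNAs 15 lay there, among them all 4 of miR-155, 3 of 4 of miR-21 and 3 of 4 of miR-31. miR-210 had 1 of 4 there, and miR-146a and miR-146b had 2 of 4 each. Values held just below whole cycles differ either by almost nothing or by about 1 cycle. Of the 64 tested miRNAs of card A, 22 had all 4 CT values within the same whole cycle, miR-21, miR-31 and miR-155 among them, which by itself holds the change before U6 below 1 cycle. Of these 22, 0 had an adjusted p below 0.05, against 21 of the other 42, which include miR-146b and miR-210. The 22 were picked by the same CT values that were tested. The 20 miRNAs called higher on card A had rises before U6 of 0.97 or more. The contrast was thus largely set by that choice, and nothing further about miR-21, miR-31 and miR-155 is drawn from it. Where the uneven spread came from, and its part in the changes, was not tested.

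**Figure D4:**
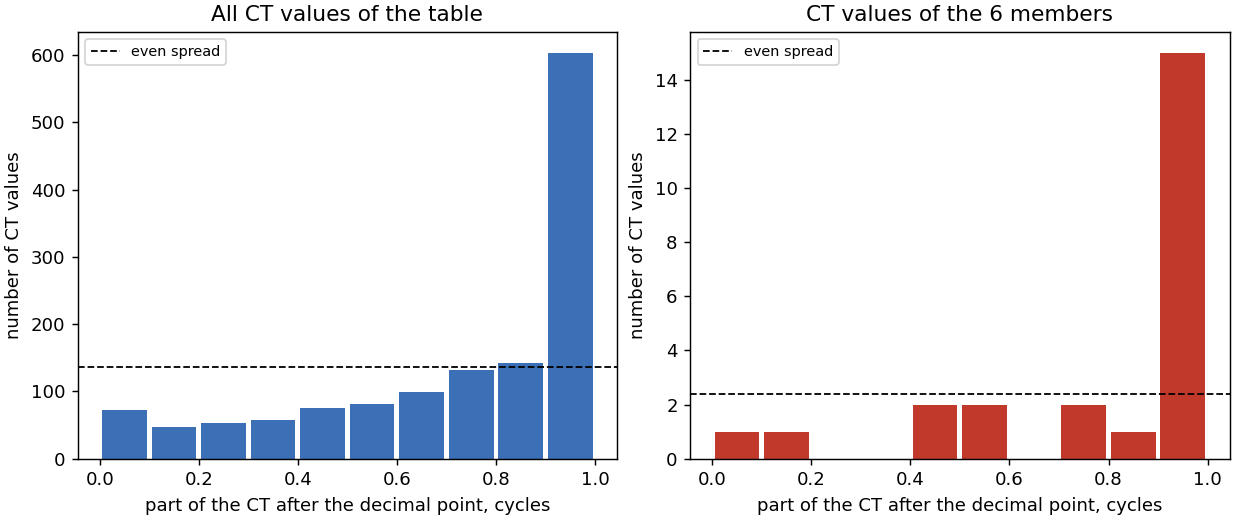
Number of CT values (vertical axis) by the part after the decimal point in steps of 0.1 cycle (horizontal axis), for the whole table (left) and for the 6 miRNAs (right), with the dashed line at an even spread. The last step holds 604 of 1366 values in the table and 15 of 24 for the 6 miRNAs.

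The second cards (card B) held assays for the other arm of 3 of the hairpins, shown here as the RefSeq hairpin of miR-31 with both mature arms in capitals, first the arm read on card A and then that of miR-31*, since it was the only one well detected.
Mir31: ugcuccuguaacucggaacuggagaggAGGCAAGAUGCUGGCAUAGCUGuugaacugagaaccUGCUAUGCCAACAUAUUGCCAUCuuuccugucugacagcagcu

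The arm miR-31* had CT 27.97 and 27.66 in the controls and 27.38 and 27.96 after depletion. Its ΔCT exceeded that of miR-31 by 1.94 to 2.89 cycles over the 4 samples, a lower level by 3.85- to 7.43-fold. Relative to the U6 of card B, miR-31* changed by -0.58 (SE 0.29, 95% interval -1.43 to 0.28, limma adjusted p = 0.255). Before U6 its difference was 0.15, and the U6 of card B was higher after depletion by 0.72. The arms miR-21* and miR-146b* were near or past the limit of detection, with CT 33.98 to 35.96 for miR-21* over 2 wells, and for miR-146b* a CT from 31.05 to 34.97 in only 3 of 8 readings. The ΔCT of miR-21* exceeded that of miR-21 by at least 8.10 cycles in all 4 samples. In each control a well read 35.96 and was set to 35, so the differences of the controls, 8.10 and 8.45, are lower bounds. After depletion no well was past 35, and the differences were 8.87 and 8.26. The ΔCT of miR-146b* exceeded that of miR-146b by 5.05 to 6.21 cycles. For miR-146b*, 1 of 2 wells had no CT in any sample and was averaged in at 35. In c-Myc depleted 1 the other well read 31.05, so the 5.05 of that sample is not a lower bound.

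Other miRNAs of the same settings, taken from 4 lists drawn from general knowledge, were read beside them. In these counts, rose and fell stand for a limma adjusted p below 0.05 in that direction. The medians are over all tested miRNAs of a list, called or not. Over all 80 tested miRNAs 25.0% rose and 7.50% fell, and the median on card A was 0.23. Of 6 tested miRNAs known to respond to inflammation and NF-kB, 4 rose and 0 fell, with a median of 0.84. They were miR-125b-5p at 1.10, miR-132 at 0.97, let-7i at 0.85 and miR-365 at 0.82. Of 5 tested miRNAs known to respond to hypoxia, 1 rose, miR-26a at 1.10, and 0 fell, with a median of 0.82. Of 11 tested miRNAs known to be raised in lung tumours, 5 rose and 0 fell, with a median of 0.69. miR-19b at 1.28, miR-17 at 1.17 and miR-20a at 1.05, of the miR-17-92 cluster, and miR-106b at 1.14, of a related cluster, were among them. Other tested miRNAs of these clusters were not called, with miR-19a at -0.34, miR-92a at -0.15 and miR-93 at 0.07. Of 12 tested miRNAs known to be lowered in lung tumours, 3 rose and 1 fell, with a median of 0.11. miR-34c at 1.97 and miR-34a at 1.17, which are induced by p53, and let-7i were higher, and miR-126-3p, an endothelial miRNA, fell by 2.18. Some tested miRNAs were in more than 1 list (miR-199a-3p, let-7i and miR-24), so the 4 list medians were not separate readings. With samples centred on their medians, the list medians were 0.45, 0.43, 0.30 and -0.28, beside -0.16 on card A and -0.27 over the 80. The study named several of these miRNAs from the same samples, so their directions are not independent evidence. A CT with 8 decimals was found in the depleted samples for 13 miRNAs, miR-125b-5p, miR-26a, miR-17, miR-19b, miR-20a, miR-106b, miR-34a, miR-34c and miR-126-3p among them, where no CT of the 6 had more than 6 decimals. The rest were miR-130a, miR-139-5p, miR-214 and miR-34b-3p. All of the 13 except miR-34b-3p had an adjusted p below 0.05 and so are part of the share called over the 80. The effect of these values on that share was not tested.

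Because several of the 6 are abundant in other cell types, markers of those were read on the same cards, as summed estimated copies per cell with a CT past 35 set to 35. Of 6 leukocyte and blood miRNAs, 1, miR-150, was detected in all 4 samples, and the sum was 10.2 to 32.04 in controls and 95.3 to 97.8 after depletion. miR-142-3p and miR-142-5p, which define blood cells, were below CT 35 only in control 1, as was miR-451 of the same list, at 32.23. Most of the sum after depletion was miR-486, at CT 29.02 and 29.15 against no CT below 35 in the controls. The endothelial sum over miR-126-3p and miR-126-5p was 103.7 to 105.8 in controls and 26.0 to 28.7 after depletion. The sum over 6 miRNAs of fibroblasts and mesenchyme, such as feeder cells, was 4084 to 4105 in controls and 6012 to 6454 after depletion. Of these, 5 were detected in all 4 samples, and miR-199a-5p was at 35 in control 2 and c-Myc depleted 1. The 6 did not move together. The log2 change was 1.02 for miR-214, 0.82 for miR-199a-3p and 0.63 for miR-140. It was 0.04 for miR-143, -0.13 for miR-145 and -0.90 for miR-199a-5p. Only miR-214 had a limma adjusted p below 0.05. The 8 epithelial miRNAs were near the limit, with 1, miR-200c, detected in all 4 samples, miR-203 without a CT, and a sum of 20.0 to 47.6 in controls and 14.4 to 20.3 after depletion. The 4 muscle miRNAs summed to 6.61 to 7.54 and 9.05 to 28.5. None of 12 miRNAs of embryonic stem cells was detected, and their sum of 17.1 in every sample is what undetected assays give. The epithelial markers of a bronchoalveolar cell were thus mostly near or past the limit of detection in both groups. The mesenchymal ones other than miR-199a-5p were high in both groups. The part of feeder or other cells in the levels of miR-21, miR-31, miR-146a, miR-146b, miR-155 and miR-210 was not tested.

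The detected miRNAs with the most similar profile were found by the root mean square difference of ΔCT over the 4 samples after each miRNA was centred on its mean, a description in which the miRNAs of card A share the U6 values of that card. For miR-155 they were let-7f at 0.0148 cycles and miR-125a-5p at 0.0164, beside a median of 0.402 over all detected miRNAs. For miR-21 they were miR-494 at 0.0272 and miR-29a at 0.0403. For miR-31 they were miR-145 at 0.0471 and miR-27a at 0.0487. Their CT lay near whole cycles apart, at 4.99 to 5.03 cycles between let-7f and miR-155 and 4.94 to 5.01 cycles between miR-494 and miR-21. For miR-210 they were let-7e at 0.0351 and miR-22 at 0.0955, and for miR-146b miR-185 at 0.0895 and miR-322* at 0.104, of which miR-22 and miR-322* are on card B with its own U6. No miRNA was as close to miR-146a, for which miR-194 at 0.519 and miR-20b at 0.620 came nearest.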

How the data were processed

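Small RNA of 4 BASC samples was reverse transcribed with a rodent Megaplex primer pool and read on 2 TaqMan low-density cards of 384 wells. The labels name SYBR Green as the label, but the protocol is a TaqMan one. The authors deposited CT values, a log2 scale, with empty cells where none was called; Partek 6.4 is named in the submitters' processing notes. From these, a CT past 35 or missing was set to 35, wells of an assay were averaged, and the mean of 4 U6 wells of the card was subtracted. Mouse miRNAs with a lowest ΔCT below 10 were fitted with limma 3.58.1 in R 4.3.3, after a test on simulated data. The limit of 10, the 2-fold limit and the formula for copies per cell, 10 to the power of (40 - CT)/3.34, divided by 22, come from the study's methods. Tables and plots used pandas 2.3.3, numpy 2.4.6 and matplotlib 3.10.9.

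The 6 miRNAs and all lists were chosen with earlier results of these data known. Named were every member, every star assay of its hairpin, up to 4 called miRNAs of each list by size of change, and the 2 nearest profiles of each member. Single markers of other cell types were named after their values were seen. The labels do not say that replicate numbers pair the samples, and the main fit assumed no pairing. The differences between replicates 1 and 2 of both groups correlated at -0.44 over the 80 miRNAs. With 1 such difference a group, this cannot settle whether the samples were paired. The other references, other ceilings and filters, the tests, the replicate block and each left-out sample were alternatives. The crossed replicate block was chosen after seeing the data.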

Additional observations from a re-analysis of the deposited data

How the results depend on the processing

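The number of miRNAs called over the whole table depended on the reference, the filter, the test and single samples. The number with an adjusted p below 0.05, 26 of 80, became 3 with median centring, 1 with median centring within card, 14 with U6 of both cards pooled, 4 with quantile normalization, 2 of 263 without the ΔCT filter, 17 of 55 with a ΔCT below 10 in all samples, and 3 with the analysis of variance per miRNA. The number past the criteria of the methods, 16, became 7 with median centring, 5 within card, 6 with U6 pooled, 7 with snoRNA135 and snoRNA202, 8 with quantile normalization, 37 without the filter and 9 with a ΔCT below 10 in all samples. Leaving out 1 sample gave 0 (without c-Myc depleted 2) to 25 (without control 2) adjusted calls, and 5 (without c-Myc depleted 1) to 24 (without control 2) by the criteria; the lone sample left in a group is assumed to vary like the other group. The replicate block gave 0 adjusted calls, and the crossed pairing, added after the data were seen, gave 33.

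Of the 5 tested miRNAs, 1 was called under any alternative, miR-21 with the snoRNA reference, at -0.55. miR-210 turned to -0.17 with median centring, -0.29 within card, -0.0702 with U6 pooled, -0.0851 with the snoRNAs and -0.32 with quantile normalization, and ranged from -0.14 to 0.57 with 1 sample left out. miR-146b turned to -0.0695 with median centring and -0.18 within card. With 1 sample left out, miR-31 ranged from -0.18 to 0.0184, miR-21 from -0.48 to -0.0251, miR-155 from -0.24 to -0.00977, miR-146b from 0.00336 to 0.63 and miR-146a from -1.67 to 0.98. Before adjustment, p for miR-21 was 0.0311 with quantile normalization and 0.0420 without control 1, and for miR-155 0.0298 with the snoRNAs. No calls were lost, since none was made; 2 samples a group and 1 well an assay limit what could be seen. Values at the ceiling of 35 have no order.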
